A study of Mus musculus with 9 samples.

Results

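The 9 genes described here are the risers Lima1, Zfp185, Fbxo46, 2900026A02Rik and Mical1, and the Mical paralogs Mical2, Mical3, Micall1 and Micall2. By the rule below, the risers rose most with the Ablim3 shRNA in ribosome-bound RNA pulled down from PV INs (parvalbumin-expressing interneurons). The paralogs were taken for their family. These 9 are among 15069 genes tested, and 10 identifiers carry them because the mm9 annotation splits Mical3 over 2. The 5 risers were chosen on the values described below: a call at a false discovery rate (FDR) under 0.05 with a change of at least 1.5-fold, groups that did not overlap, a mean of at least 10 CPM and the largest fold change. Their rise is therefore given as a description and was not tested. The paralogs were not chosen for their values in this contrast and were tested.

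Lima1 encodes EPLIN, a LIM-domain protein that bundles actin filaments, slows their disassembly and joins them to the cadherin-catenin complex, and Zfp185 encodes another LIM-domain protein that binds filamentous actin. The MICAL proteins are flavin monooxygenases that oxidize methionines of actin and thereby take filaments apart, whereas the MICAL-like proteins Micall1 and Micall2 lack the enzyme domain and act as adaptors for Rab GTPases in membrane traffic. Fbxo46 encodes an F-box protein, the kind of subunit that brings substrates to an SCF ubiquitin ligase. In neurons, actin filaments shape spines, growth cones and the scaffold beneath synapses.

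PV-Cre; Rpl22 HA/HA mice, in which Cre driven from the parvalbumin gene leaves an HA-tagged ribosomal protein in PV INs, received lentivirus in the dentate gyrus (DG) that carried either a non-target shRNA (shNT, 5 samples) or an shRNA against Ablim3 (shRNA, 4 samples). The mice were 2 months old, CA3/CA2 tissue was taken 2 weeks after injection, and each sample pooled 6 mice, male and female. Ribosomes were pulled down through the HA tag and the RNA on them was sequenced, so the values hold PV IN RNA and whatever RNA from other cell types came down with it, and there was no group without virus. In such bulk samples fewer cells of a type and less RNA per cell cannot be told apart.

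Between 18281719 and 34578837 reads fell on genes in each sample, and levels are given as CPM (counts scaled to library size, TMM-normalized). Markers of PV INs were present in every sample, with summed levels of 5570 to 8926 CPM in shNT and 3258 to 7819 CPM in shRNA samples. Of these 15 markers 0 had a positive log2 fold change, against 57.9% of all genes, and their median was -0.37. Relative to the trend of fold change on exon length over all genes the median was -0.59. Of the 15, 0 were called in either direction, where 1.74% of all genes were called up and 0.0133% down. Ablim3, the target in DG, was not lowered in these PV IN samples (log2 fold change 0.13, SE 0.23, FDR = 0.701, quasi-likelihood test of edgeR, Benjamini-Hochberg adjusted), and knockdown in DG was not analysed here. A pair of libraries stood apart from their groups. shNT replicate 2 had 18.6% of its reads outside exons against at most 11.3% in the other shNT samples, and shRNA replicate 4 had 27.2% against at most 19.8% in the other shRNA samples. shRNA replicate 4 also had 5836 CPM of summed astrocyte markers against at most 1752 CPM elsewhere in its group. The sample names fall into a set YTa31 (shNT replicates 1 to 3, shRNA replicates 1 to 3) and a set YTa32 (shNT replicates 4 and 5, shRNA replicate 4), and the labels do not say what the sets mark.

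All 5 risers were lower in every shNT sample than in any shRNA sample, and their group means differed 5.39- to 8.94-fold. Against this, 262 genes (1.74% of those tested) were called up, 2 (0.0133%) were called down, and 1351 (8.97%) had every shRNA sample above every shNT sample, with a median log2 fold change of 0.11 over all genes. Since the rule used this contrast, nothing is read from the members against these shares.

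Lima1 (ENSMUSG00000023022, mm9 chr15:99608901-99705859, minus strand) measured 30.3, 9.59, 10.7, 7.11 and 5.49 CPM over shNT replicates 1 to 5, whereas shRNA replicates 1 to 4 gave 169.9, 93.4, 154 and 34.3 CPM. shNT replicate 1 was the highest of its group by far and shRNA replicate 4 the lowest of the other, and these 2 samples lay 1.13-fold apart. Group averages were 12.6 ± 10.1 CPM (SD, n = 5) for shNT and 113 ± 62.0 CPM (SD, n = 4) for shRNA, giving a log2 fold change of 3.16 (SE 0.55). This was the 14th largest log2 fold change of all genes tested.

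Zfp185 (ENSMUSG00000031351, mm9 chrX:70232678-70276882, plus strand) was the weaker of the LIM-domain pair, at 11.4, 2.52, 1.85, 1.01 and 1.29 CPM over the 5 shNT samples and 26.1, 26.4, 44.3 and 14.4 CPM over the 4 shRNA samples, in replicate order. Here too shNT replicate 1 stood above the rest of its group and shRNA replicate 4 was the lowest of the shRNA samples. Its shNT mean of 3.61 ± 4.38 CPM (SD, n = 5) compared with 27.8 ± 12.3 CPM (SD, n = 4) for shRNA, which is a log2 fold change of 2.93 (SE 0.65). Only 20 to 320 reads stood behind the shNT values, against 319 to 839 in shRNA samples.

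Fbxo46 (ENSMUSG00000050428, mm9 chr7:19705208-19723610, plus strand) reached 27.6, 8.40, 12.4, 9.43 and 10.4 CPM across the 5 shNT samples in replicate order and 139.8, 85.9, 134 and 28.1 CPM across the 4 shRNA samples. The 4 other shNT samples lay close together, and shRNA replicate 4 exceeded shNT replicate 1 by only 1.02-fold. With shNT it averaged 13.6 ± 7.96 CPM (SD, n = 5), with the Ablim3 shRNA 97.0 ± 51.9 CPM (SD, n = 4), for a log2 fold change of 2.83 (SE 0.47).

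2900026A02Rik (ENSMUSG00000051339, mm9 chr5:113515343-113592371, minus strand), a gene still known by a clone name, stood at 43.7, 21.5, 16.1, 5.90 and 9.57 CPM in the shNT samples (replicates 1 to 5), compared with 129, 117, 205 and 46.6 CPM in the shRNA samples (1 to 4). Its shNT samples fell 7.41-fold from highest to lowest, and shRNA replicate 4 lay 1.07-fold above shNT replicate 1. Group averages were 19.4 ± 14.9 CPM (SD, n = 5) for shNT and 124 ± 64.7 CPM (SD, n = 4) for shRNA, giving a log2 fold change of 2.68 (SE 0.55).

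Mical1 (ENSMUSG00000019823, mm9 chr10:41196120-41206838, plus strand), the only riser of the monooxygenase family, measured 8.71, 4.31, 2.85, 2.12 and 1.10 CPM over shNT replicates 1 to 5, whereas shRNA replicates 1 to 4 gave 30.4, 14.4, 20.8 and 16.6 CPM. Its groups were the farthest apart of the 5 risers, with the lowest shRNA sample (replicate 2 and not replicate 4) 1.65-fold above the highest shNT sample. Its shNT mean of 3.82 ± 2.98 CPM (SD, n = 5) compared with 20.6 ± 7.09 CPM (SD, n = 4) for shRNA, which is a log2 fold change of 2.43 (SE 0.49). The authors counted reads without regard to strand, and 15% of the exon bases of Mical1 are shared with Smpd2 on the other strand. Reads of the pair there cannot be told apart, and reads that HTSeq found ambiguous between genes were left out of the counts. Smpd2 itself had a log2 fold change of 1.33 (FDR = 0.106, quasi-likelihood test of edgeR).

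**Figure D1:**
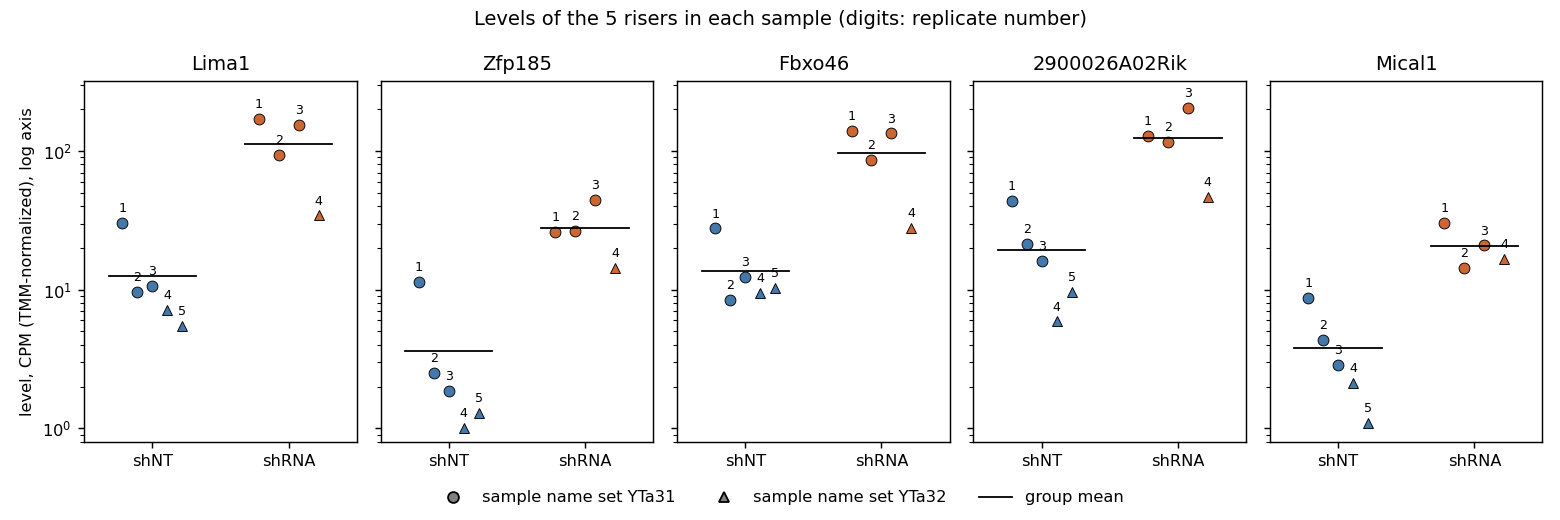
Level of each riser in every sample, in CPM on a log axis, with shNT samples in blue and shRNA samples in orange, the replicate number above each point and the group mean as a line. In all 5 panels shNT replicate 1 is the highest shNT sample, and in 4 of 5 shRNA replicate 4 (lowest orange triangle) is the lowest shRNA sample.

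The same samples set the edges of both groups. shNT replicate 1 was the highest shNT sample for 5 of 5 risers, shNT replicates 4 and 5 were the lowest pair for 4 of 5, and shRNA replicate 4 was the lowest shRNA sample for 4 of 5, Mical1 being the exception. With shNT replicate 1 left out, the log2 fold changes became 3.78 for Lima1, 4.05 for Zfp185, 3.26 for Fbxo46, 3.23 for 2900026A02Rik and 2.99 for Mical1. The library with the most reads outside exons was shNT replicate 2 in its group and shRNA replicate 4 in the other. Without these libraries the log2 fold changes were 3.39, 3.06, 3.01, 3.01 and 2.58 in the same order. There shRNA replicate 1, with 19.8% of reads outside exons, was kept. Which of the 5 were called depended on which samples were used: all 5 passed without shNT replicate 1, and 0 passed when shNT replicate 3, 4 or 5 or shRNA replicate 1 or 3 was left out, and then 0 genes of all tested passed the quasi-likelihood test (3473 to 4625 genes then had an unadjusted p under 0.05).

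The ratios of means within each set of sample names are given as a description, since the rule fixed their direction. Within YTa31 (3 shNT and 3 shRNA samples) the means differed 8.25-fold for Lima1, 6.14-fold for Zfp185, 7.44-fold for Fbxo46, 5.53-fold for 2900026A02Rik and 4.13-fold for Mical1. Within YTa32 (2 shNT samples and 1 shRNA sample, so no test) the ratios were 5.45, 12.5, 2.84, 6.02 and 10.3.

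Just inside the choice stood Mical1 at a log2 fold change of 2.43, and just outside it, by the same rule, were St5 at 2.41, Myo6, which encodes an actin-based motor, at 2.31, and 2310046A06Rik at 2.26. In all 187 genes met the rule on calls, overlap and level. A further 12 genes called up with a change at least as large as that of Mical1 did not meet it, 8 because they averaged under 10 CPM and 4 because their groups overlapped.

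The promoters of the members were read from a RefSeq table of build GRCm38.p6, in which all 9 have at least 1 window and 11 windows in all, each running from 250 bases before a start site to 50 after it. The windows of Lima1 and Fbxo46 are shown because these 2 genes tracked each other most closely over the samples, and that of Mical2 as the most abundant paralog. Capitals mark matches to a CArG box (Lima1) and to CACGTG (Mical2), with no overlap between matches. The windows are chr15:99820100-99820399 (minus strand), chr7:19119609-19119908 (plus) and chr7:112225586-112225885 (plus).
Lima1: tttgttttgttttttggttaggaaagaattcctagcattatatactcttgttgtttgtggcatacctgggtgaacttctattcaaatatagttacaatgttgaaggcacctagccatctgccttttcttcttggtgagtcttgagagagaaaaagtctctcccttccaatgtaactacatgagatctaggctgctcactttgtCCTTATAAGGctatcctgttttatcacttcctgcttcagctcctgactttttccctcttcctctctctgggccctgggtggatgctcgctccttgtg
Fbxo46: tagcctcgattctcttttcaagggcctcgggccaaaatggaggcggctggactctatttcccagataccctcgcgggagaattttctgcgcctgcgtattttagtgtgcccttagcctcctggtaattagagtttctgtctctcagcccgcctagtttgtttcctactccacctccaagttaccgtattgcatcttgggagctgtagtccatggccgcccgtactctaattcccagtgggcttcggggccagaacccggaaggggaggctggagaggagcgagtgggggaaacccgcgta
Mical2: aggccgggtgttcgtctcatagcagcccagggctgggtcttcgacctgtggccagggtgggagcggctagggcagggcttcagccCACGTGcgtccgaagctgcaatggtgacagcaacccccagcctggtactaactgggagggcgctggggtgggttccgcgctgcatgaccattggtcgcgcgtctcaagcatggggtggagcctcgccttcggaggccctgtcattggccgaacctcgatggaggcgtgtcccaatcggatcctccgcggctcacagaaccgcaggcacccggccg

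Lima1 was the only member with a CArG box, the element bound by serum response factor, as CCTTATAAGG starting 47 bases before the start; 1.63% of the 32851 windows in the table hold one on either strand. This window lies 55.3 kb inside Lima1 from its 5′ end, so it belongs to a shorter transcript, and the gene counts do not separate transcripts. CACGTG was found at Mical2 only (7.15% of all windows). GGGCGG was found in 7 of the 11 windows (35.7% of all), whereas TGANTCA (7.81%) and TGACGTCA (1.79%) were found in 0 of 11. All motifs were searched on both strands. No motif was shared by the 5 risers. Lima1 had 42.3% G and C in its window, below the median of all windows (52.7%), and Zfp185 and the upstream window of 2900026A02Rik had 65.3% and 76.0%, above its upper quartile (61.7%).

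Among the paralogs, 0 of 5 identifiers (Mical3 has 2) were called, where 1.74% of all genes were called up, all 5 had a positive log2 fold change, as did 57.9% of all genes, and 2 of 5 had every shRNA sample above every shNT sample, as did 8.97% of all genes. Mical2 was by far the most abundant of the family, Micall2 had the fewest reads, and Mical3 had the largest change of the 4 genes. These results are taken in the order of the monooxygenases and then the adaptors. The exact permutation p-values of single genes below were not adjusted. For scale, 5133 of 15069 genes had an unadjusted p under 0.05 in the quasi-likelihood test of edgeR.

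Mical2 (ENSMUSG00000038244, mm9 chr7:119369370-119498708, plus strand), a monooxygenase that also acts on nuclear actin, reached 303, 139, 349, 219.9 and 159.5 CPM across the 5 shNT samples in replicate order and 333, 394, 375 and 262 CPM across the 4 shRNA samples. The groups overlapped, with shNT replicates 1 and 3 inside the range of the shRNA samples. With shNT it averaged 234 ± 90.5 CPM (SD, n = 5), with the Ablim3 shRNA 341 ± 58.6 CPM (SD, n = 4), for a log2 fold change of 0.54 (SE 0.27, FDR = 0.176, quasi-likelihood test of edgeR, Benjamini-Hochberg adjusted). Exact permutation of the log2 level (two-sided, 126 arrangements) gave p = 0.119. Mical2 has 11510 exon bases, longer than 97.1% of genes tested, and relative to the trend of fold change on exon length over all genes its log2 fold change was -0.02.

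Mical3, the third monooxygenase, was counted under ENSMUSG00000003178 for its 5′ stretch (mm9 chr6:120951381-121031627, minus strand) and ENSMUSG00000051586 for its 3′ stretch (mm9 chr6:120881725-120953171, minus strand). The 3′ identifier stood at 24.8, 26.7, 10.7, 8.27 and 13.5 CPM in the shNT samples (replicates 1 to 5), compared with 85.2, 37.2, 59.7 and 31.9 CPM in the shRNA samples (1 to 4). All 4 shRNA samples were above all 5 shNT samples, by at least 1.19-fold, and its log2 fold change was 1.67 (SE 0.38), with an FDR of 0.0503 (quasi-likelihood test of edgeR) and p = 0.0159 in the exact two-sided permutation test.

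The 5′ identifier of Mical3 measured 15.8, 7.53, 10.7, 5.35 and 4.71 CPM over shNT replicates 1 to 5, whereas shRNA replicates 1 to 4 gave 30.3, 22.7, 26.8 and 12.5 CPM. Only shRNA replicate 4 fell below shNT replicate 1, and 3 of 4 shRNA samples were above all shNT samples. Its log2 fold change was 1.39 (SE 0.36), with an FDR of 0.0608 (quasi-likelihood test of edgeR) and p = 0.0317 in the exact two-sided permutation test. Both Mical3 identifiers missed the FDR threshold narrowly and passed it with edgeR's likelihood ratio test (FDR = 0.00131 for the 3′ and 0.00653 for the 5′ identifier), which called 11.2% of all genes up, and with DESeq2 (FDR = 0.00131 and 0.00560), which called 10.1% up. With the counts of both identifiers added, a setting chosen after seeing the data, the log2 fold change was 1.58 (FDR = 0.0469, quasi-likelihood test of edgeR). That setting called 273 of 15068 genes up.

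Micall1 (ENSMUSG00000033039, mm9 chr15:78939413-78967328, plus strand), an adaptor on recycling endosomes, reached 23.7, 19.7, 23.2, 12.3 and 13.1 CPM across the 5 shNT samples in replicate order and 23.9, 24.7, 31.3 and 28.1 CPM across the 4 shRNA samples. The groups were separated by 1.01-fold only, and the lowest shNT samples were replicates 4 and 5. Group averages were 18.4 ± 5.42 CPM (SD, n = 5) for shNT and 27 ± 3.40 CPM (SD, n = 4) for shRNA, giving a log2 fold change of 0.55 (SE 0.22, FDR = 0.104, quasi-likelihood test of edgeR; exact two-sided permutation p = 0.0397), which was 0.17 relative to the exon length trend. The antisense gene 1700088E04Rik shares 14.7% of its exon bases and had a log2 fold change of 0.13.

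Micall2 (ENSMUSG00000036718, mm9 chr5:140182647-140212290, minus strand), an adaptor at cell junctions, stood at 1.49, 1.84, 1.06, 0.757 and 1.16 CPM in the shNT samples (replicates 1 to 5), compared with 0.798, 1.39, 1.27 and 5.23 CPM in the shRNA samples (1 to 4), from 15 to 116 reads a sample. Only shRNA replicate 4, the library with the highest astrocyte and endothelial marker sums, stood above the shNT range. The log2 fold change was 0.77 (SE 0.52, FDR = 0.301, quasi-likelihood test of edgeR; exact two-sided permutation p = 0.548) and became -0.16 without that sample. The part of the other cell types in that sample was not tested.

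Micalcl (ENSMUSG00000030771, mm9 chr7:119511822-119556617, plus strand), the neighbor of Mical2 with a MICAL C-terminal-like sequence, measured 1.07, 1.15, 0.309, 0.151 and 0.408 CPM over shNT replicates 1 to 5, whereas shRNA replicates 1 to 4 gave 3.52, 2.10, 4.22 and 1.49 CPM. Its groups did not overlap, but only 3 to 106 reads stood behind a value. The log2 fold change was 2.19 (SE 0.54, FDR = 0.0564, quasi-likelihood test of edgeR; exact two-sided permutation p = 0.0238).

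Whether the 4 paralogs changed unequally was tested on the within-sample difference of log2 levels for all 6 pairs, and 0 of 6 passed after adjustment. Mical3 (both identifiers) against Micall2 changed by 1.17 log2 units in favor of Mical3 (95% interval -0.62 to 2.96, exact two-sided permutation p = 0.159, adjusted p = 0.317), the largest change but with the widest interval. Mical3 against Micall1 changed by 1.00 (95% interval from the pooled spread 0.17 to 1.84, exact two-sided permutation p = 0.0317, adjusted p = 0.190). Mical2 against Mical3 changed by -0.99 (95% interval -2.13 to 0.16, exact permutation p = 0.0873, adjusted p = 0.262). Mical2 against Micall1 changed by 0.02 (95% interval -0.68 to 0.71), an interval that holds changes of either sign.

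**Figure D2:**
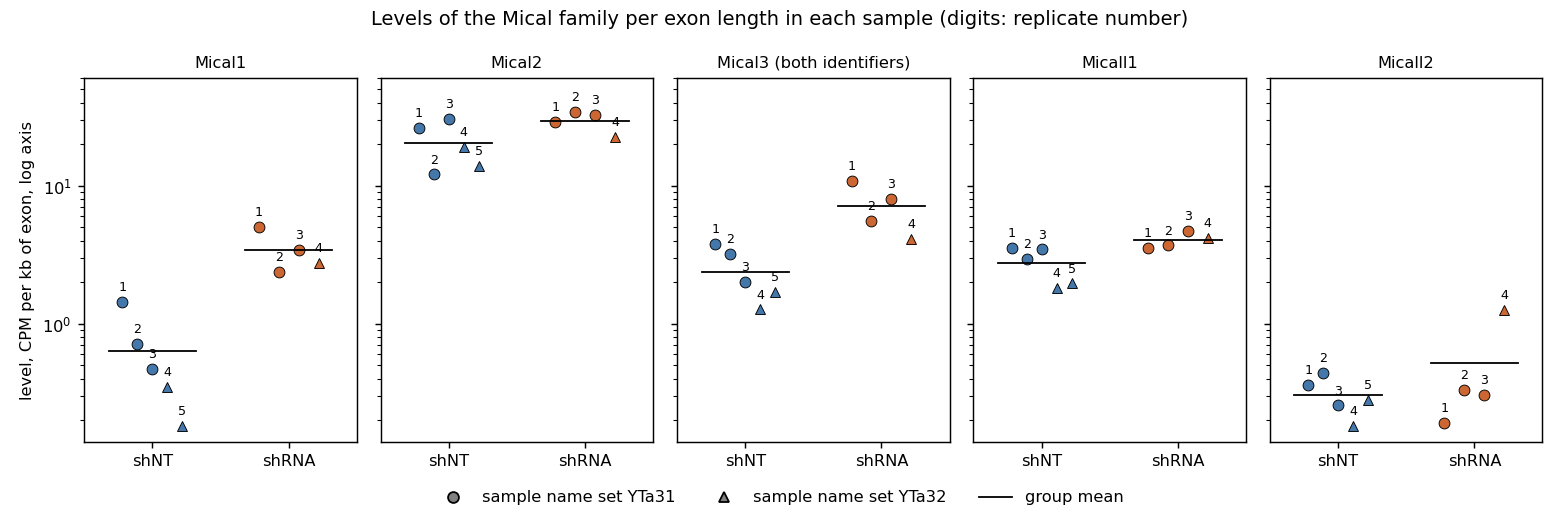
Levels of Mical1, the 2 other monooxygenases and the 2 adaptors in every sample, in CPM per kb of exon on a log axis, with replicate numbers above the points and group means as lines. Mical2 lies above the other family members in all 9 samples, the Mical1 groups are separated, and Micall2 in shRNA replicate 4 lies alone.

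Per exon length, Mical2 made up 76.2% ± 8.70 (SD, n = 5) of the summed level of the 5 family genes in shNT and 66.2% ± 5.95 (SD, n = 4) in shRNA samples. Mical1 made up 2.32% ± 1.44 (SD, n = 5) in shNT and 7.59% ± 2.17 (SD, n = 4) in shRNA samples, and Mical3 9.53% ± 4.51 (SD, n = 5) and 15.6% ± 4.88 (SD, n = 4). So even where Mical1 was highest, it was at most 10.4% of the family. Micall1 held 10.7% ± 2.69 (SD, n = 5) and 9.21% ± 2.04 (SD, n = 4).

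Ranked on the level per kb of exon, the order in shNT samples was Mical2 (20.4 CPM per kb), Fbxo46 (4.51), 2900026A02Rik (3.29), Micall1 (2.75), Mical3 (2.39), Lima1 (1.76), Zfp185 (0.974), Mical1 (0.631) and Micall2 (0.304). Of the 8 pairs of neighbors in that order only Mical2 and Fbxo46 had ranges over samples that did not overlap. In shRNA samples the order was Fbxo46 (32.1 CPM per kb), Mical2 (29.6), 2900026A02Rik (21.1), Lima1 (15.8), Zfp185 (7.49), Mical3 (7.15), Micall1 (4.04), Mical1 (3.40) and Micall2 (0.523). There only Mical1 and Micall2 did not overlap, so that Fbxo46, at 9.27 to 46.2 CPM per kb, was not separated from Mical2 at 22.8 to 34.2 CPM per kb.

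The risers moved together from sample to sample. Over the 9 samples the 10 pairs of risers had a Pearson's r of the log2 level from 0.885 (Fbxo46 with Mical1) to 0.986 (Lima1 with Fbxo46), with a median of 0.949, and a Spearman's rho from 0.85 to 0.983. The choice of members fixes the difference between groups that they share, so these values are a description, and all points also share library and scaling. After each group's mean was subtracted, r was 0.539 to 0.940 with a median of 0.798, and it was positive for 10 of 10 pairs. The pair of Zfp185 and 2900026A02Rik had r = 0.931 on these deviations, and that of Lima1 and Fbxo46 0.940.

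Part of this rested on a single library. Without shNT replicate 1 the r of the deviations ran from 0.232 (Fbxo46 with Mical1) to 0.985 (Zfp185 with 2900026A02Rik), with a median of 0.655. Lima1 was closest to the mean of the other 4 risers on deviations (r = 0.960) and Mical1 the farthest (r = 0.756).

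Of the paralogs, the 5′ identifier of Mical3 lay closest to the risers, with r of 0.927 to 0.971 over the 9 samples and 0.801 to 0.951 on deviations. Its deviations matched those of Lima1 best (r = 0.951, and 0.917 without shNT replicate 1). The 3′ identifier had r of 0.871 to 0.928 over the samples and 0.580 to 0.780 on deviations. Micalcl, which lies beside Mical2, correlated with the 3′ identifier of Mical3 (0.98 over the samples) and less with Mical2 (0.45). Mical2 had r of 0.650 to 0.755 with the risers, Micall1 0.699 to 0.855, and Micall2 -0.06 to 0.268. On deviations Micall2 ran from -0.657 with Fbxo46 to 0.04 with Mical1.

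**Figure D3:**
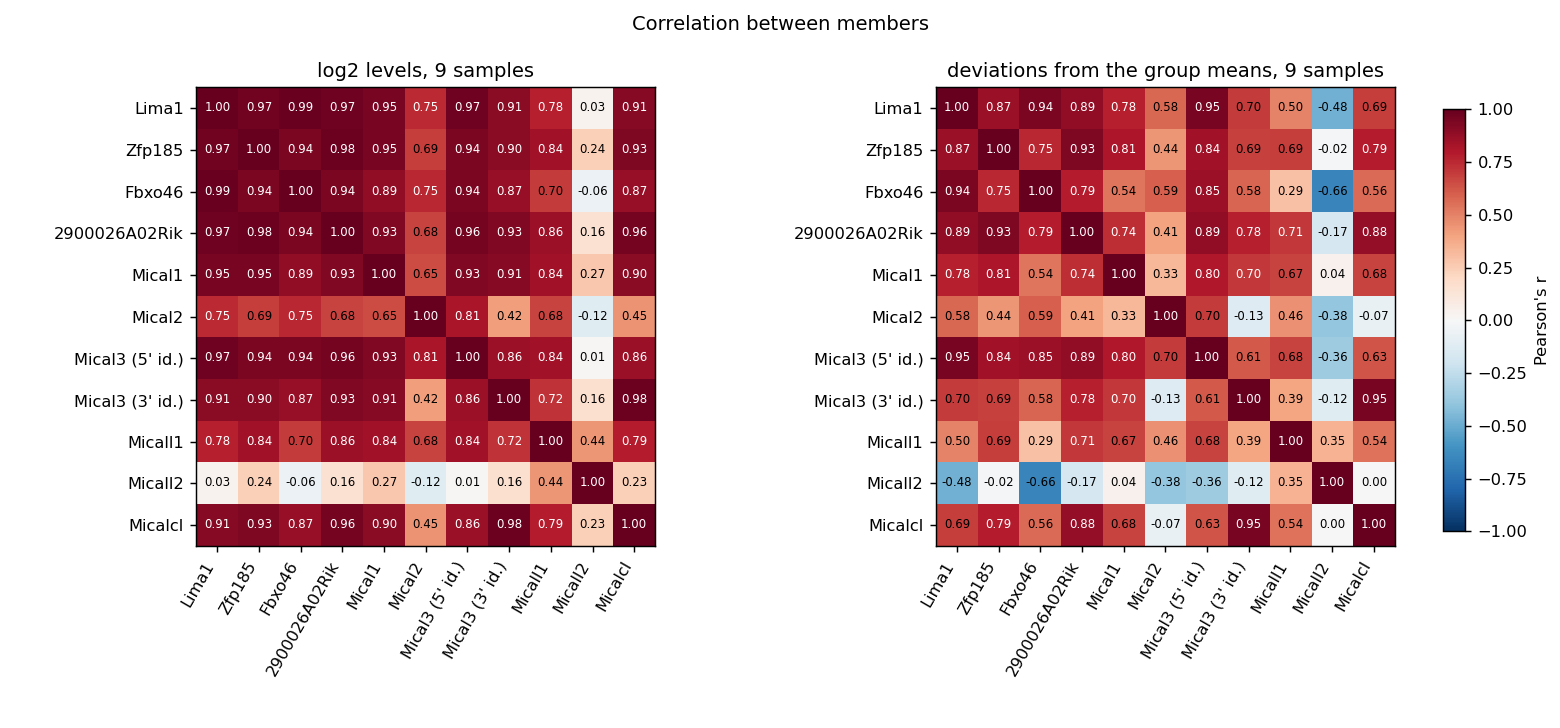
Pearson's r between the members and Micalcl over 9 samples, for log2 levels (left) and for deviations of log2 levels from the mean of each group (right), from -1 (blue) to 1 (red), with the 5′ and 3′ identifiers of Mical3 shown apart. The 5 risers and the 5′ identifier are positive with each other in both panels, and Micall2 reaches at most 0.44 with any other gene.

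The genes most like the mean of the risers were searched among 9486 genes that averaged at least 10 CPM and are not members. Over the 9 samples the 5 closest were 2310046A06Rik (r = 0.997), Ift172 (0.993), Actn1 (0.991), Myh9 (0.991) and Tjp1 (0.991), and 246 genes had r over 0.9. Ift172 encodes a part of the transport machinery of cilia, Actn1 an actin crosslinker, Myh9 the heavy chain of a non-muscle myosin and Tjp1 a scaffold of tight junctions. On deviations the 5 closest were 2310046A06Rik (r = 0.987), Myh9 (0.985), Fbxo34 (0.984), Dbn1 (0.981) and Senp7 (0.976), and 72 genes had r over 0.9. Dbn1 encodes drebrin, an actin-binding protein of dendritic spines.

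Dbn1 reached 2245, 528, 535, 215 and 320.2 CPM across the 5 shNT samples in replicate order and 9603, 4367, 7388 and 1638 CPM across the 4 shRNA samples. In Dbn1 shNT replicate 1 lay above shRNA replicate 4, so the groups overlapped, which the rule excluded for the 5 risers. Its log2 fold change of 2.90 was not called (FDR = 0.0544, quasi-likelihood test of edgeR, Benjamini-Hochberg adjusted).

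Other genes of the pathways that the members belong to were counted in 7 lists, of which 6 genes in all were called up and 0 down with the quasi-likelihood test. By edgeR's likelihood ratio test 22 genes of the lists were called up and 4 down, but that test called 11.2% of all genes up (1688 up and 542 down). Calls in each list below are from the quasi-likelihood test, which called 1.74% of all genes up. The median log2 fold change over all genes was 0.11, or -0.06 relative to the trend on exon length. As Lima1 and Zfp185 carry LIM domains, 37 LIM-domain proteins of the actin cytoskeleton were tested, and 1 was called up, 0 down, with a median of 0.44, or 0.24 relative to the exon length trend. The called gene was Tes, a focal adhesion protein, at 1.37 ± 0.670 CPM (SD, n = 5) in shNT and 8.30 ± 5.62 CPM (SD, n = 4) in shRNA samples (log2 fold change 2.60, FDR = 0.0403, quasi-likelihood test of edgeR).

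Partners of EPLIN at junctions and filaments included 15 genes tested, of which 1 was called up and 0 down, with a median of 0.50, or 0.09 relative to the exon length trend. The called gene was Actn1, with shNT values of 117, 26.1, 35.0, 13.7 and 16.2 CPM and shRNA values of 444, 372, 622 and 97.9 CPM in replicate order (log2 fold change 3.20, FDR = 0.0433, quasi-likelihood test of edgeR). Its groups overlapped, because shRNA replicate 4 was below shNT replicate 1. Its paralog Actn4 had a like log2 fold change of 3.20 and was not called (FDR = 0.0544, quasi-likelihood test of edgeR), and 12 of the 15 had a positive log2 fold change.

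Of 43 genes of actin filament turnover, 3 were called up and 0 down, with a median of 0.01 (-0.01 relative to the exon length trend), and 23 had a positive log2 fold change. The called genes were Gsn, which encodes the severing protein gelsolin, at 61.6 ± 47.2 CPM (SD, n = 5) and 605 ± 375 CPM (SD, n = 4), Scin, which encodes its relative scinderin, at 0.869 ± 0.642 CPM (SD, n = 5) and 7.40 ± 4.33 CPM (SD, n = 4), and Wasf1, a WAVE subunit that drives branching, at 148 ± 22.8 CPM (SD, n = 5) and 252 ± 17.9 CPM (SD, n = 4). Their log2 fold changes were 3.30, 3.07 and 0.77 (FDR = 0.0403 each, quasi-likelihood test of edgeR). The groups overlapped for Gsn and not for Scin and Wasf1.

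Around the MICAL proteins, 0 of 9 Rab GTPases that bind the family were called in either direction (median -0.20), and 3 of 9 had a positive log2 fold change. Of 14 genes upstream of MICAL or in methionine redox, 1 was called up and 0 down, with a median of 0.33 that turned to -0.15 relative to the exon length trend. The called gene was Nrp1, which encodes the semaphorin co-receptor neuropilin-1, at 48.1 ± 7.33 CPM (SD, n = 5) and 81.0 ± 9.08 CPM (SD, n = 4) (log2 fold change 0.75, FDR = 0.0403, quasi-likelihood test of edgeR). The methionine sulfoxide reductases that reverse the reaction of the MICAL enzymes on actin were not called; Msrb2 had a log2 fold change of -0.46 and Sepx1 (Msrb1) one of -0.77, with FDR of 0.0716 and 0.0701 (quasi-likelihood test of edgeR). These 2 and Actn4 were named after their values were seen, whereas Pvalb and Ablim3 were listed as checks of the label and the target.

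Around Fbxo46, 0 of 29 other F-box only genes were called in either direction (median -0.01), and 14 of 29 had a positive log2 fold change. Of these genes the nearest to Fbxo46 in size of change was Fbxo34, with shNT values of 507, 112, 134, 60.9 and 63.2 CPM and shRNA values of 2342, 1210, 1861 and 353 CPM in replicate order (log2 fold change 3.04, FDR = 0.0503, quasi-likelihood test of edgeR). In Fbxo34 too shRNA replicate 4 was below shNT replicate 1. Of 6 core SCF genes, 0 were called in either direction (median -0.47), and 2 had a positive log2 fold change.

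**Figure D4:**
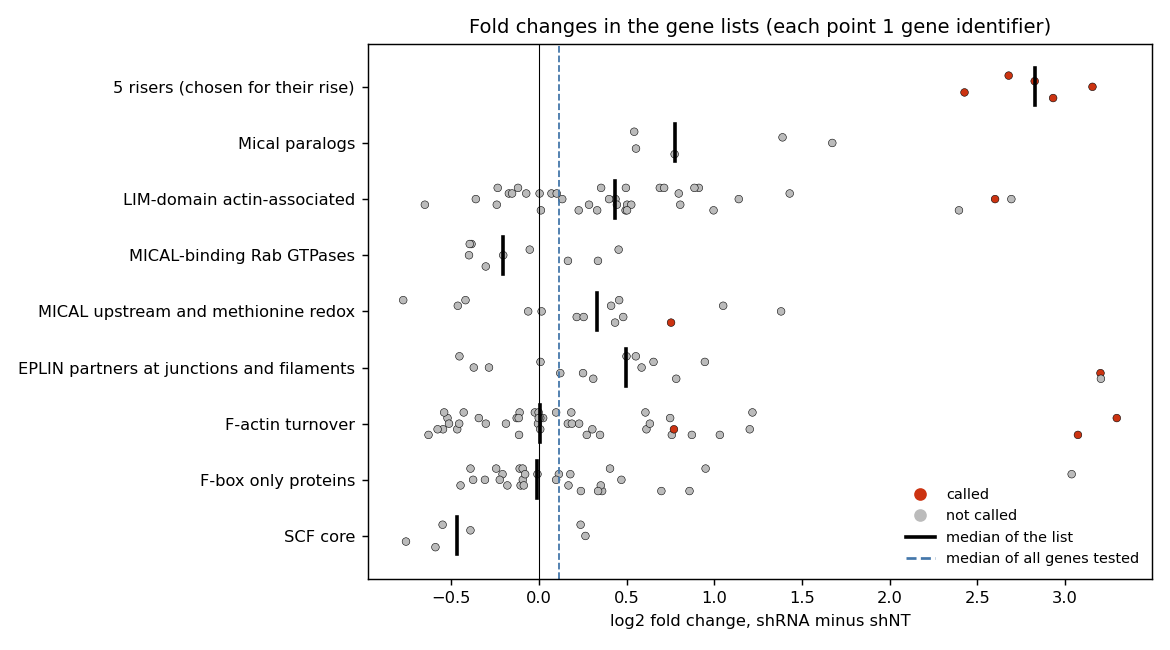
Log2 fold change (shRNA minus shNT) of every tested gene in the member groups and the 7 lists, with called genes in red, others in gray, the median of each list as a black bar and the median of all genes as a dashed line at 0.11. The 5 risers lie between 2.43 and 3.16 because they were chosen for it, and the medians of the 7 lists lie between -0.47 and 0.50.

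Markers of other cells also differed between the samples in which the risers differed. CA3/CA2 pyramidal markers (10 of 10 tested) summed to 601 to 1446 CPM in shNT and 1510 to 1893 CPM in shRNA samples. Of these 8 of 10 had a positive log2 fold change (median 0.71), and 1, Grik4, was called up, where 1.74% of all genes were. Astrocyte markers (12 of 12) summed to 1127 to 1585 CPM in shNT and 1483 to 5836 CPM in shRNA samples, and 0 were called. Yet 12 of 12 had a positive log2 fold change (median 1.35). With an FDR of 0.05 to 0.1, 10 of these 12 were higher, as were 1948 of 15069 genes tested. Oligodendrocyte markers (10 of 10) summed to 799.8 to 2468 CPM and 1514 to 3134 CPM, microglia markers to 80.2 to 152 CPM and 122 to 139 CPM, and DG granule cell markers to 131 to 208 CPM and 199 to 256 CPM. Endothelial markers summed to 104 to 322 CPM and 65.7 to 849 CPM, and mural markers to 46.8 to 176 CPM and 44.3 to 319 CPM. Leptomeningeal fibroblast markers summed to 25.9 to 40.9 CPM and 29.4 to 60.2 CPM. Of these 9, only Pdgfra was called up, at a log2 fold change of 1.21 against a list median of 0.48. Ependymal and choroid markers summed to 21.9 to 29.3 CPM and 23.8 to 91.6 CPM. Nuclear-retained noncoding RNAs summed to 1673 to 15051 CPM and 3645 to 19020 CPM, and 0 were called. No marker of these lists was at 0 counts in all samples. In shRNA replicate 4 the astrocyte, endothelial and mural sums were the highest and the PV IN marker sum (3258 CPM) the lowest of all samples. In that sample 4 of 5 risers were at the lowest level of the shRNA samples. Over shNT replicates 1 to 5 the CA3/CA2 pyramidal sums were 1446, 1082, 1079, 601 and 753 CPM. There shNT replicate 1 was the highest and replicates 4 and 5 the lowest, as in 4 of 5 risers. The shRNA samples did not share this match, with sums of 1511, 1510, 1893 and 1616 CPM over replicates 1 to 4. Among them replicate 4 lay above replicates 1 and 2, whereas 4 of 5 risers were lowest in it. Pvalb itself had a log2 fold change of -0.92 (FDR = 0.0678, quasi-likelihood test of edgeR). The part of any of these in the rise was not tested.

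The share of reads outside exons was 9.76% to 18.6% in shNT and 12.4% to 27.2% in shRNA samples. On deviations from the group means its r with the risers ran from -0.638 (Fbxo46) to 0.147 (Mical1). With that share as a covariate the log2 fold changes of all 5 risers were positive and 0 of 15069 genes were called (4479 at an unadjusted p under 0.05).

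**Figure D5:**
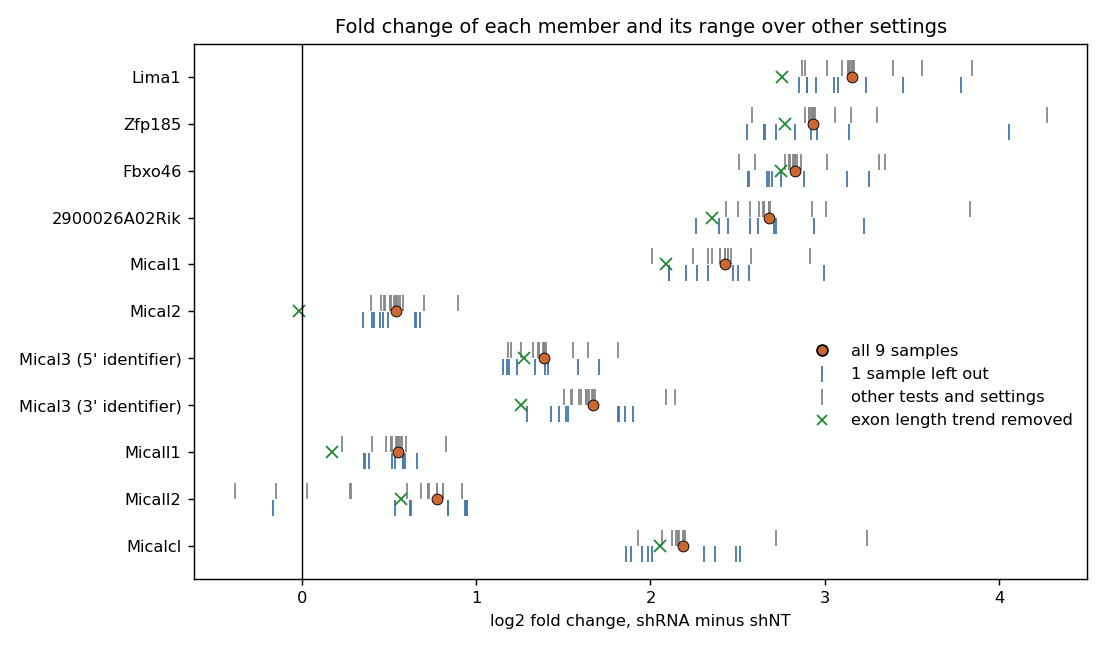
Log2 fold change (shRNA minus shNT) of each member and Micalcl, with all 9 samples (orange circle), with 1 sample left out (blue ticks), under other tests and settings (gray ticks) and relative to the exon length trend (green cross). All 5 risers stay above 2 in every setting shown, whereas Mical2 reaches -0.02 and Micall2 falls to -0.38.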

How the data were processed

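RNA sequencing of HA-immunoprecipitated ribosomes compared 5 shNT with 4 shRNA samples of CA3/CA2 tissue. The authors aligned 50 bp reads of SMARTer libraries to the mm9 transcriptome with STAR, made gene counts with the unstranded mode of HTSeq 0.6.0, and deposited the raw counts of each sample, which hold no comparison columns. The annotation behind these counts is not given in the sources used here, and names, positions and exon lengths came from the GENCODE annotation of that build, which named 37205 of 37620 identifiers. Reads that HTSeq gave to no gene (outside exons, ambiguous, not unique) were kept out of library sizes and tests and ran from 9.76% to 27.2% for those outside exons.

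Genes that reached 1 CPM in any sample (15069, with 22551 removed) were scaled by TMM and tested with the quasi-likelihood test of edgeR 4.0.16 in R 4.3.3, with group as the only term, Benjamini-Hochberg adjustment (FDR) over all genes and a biological coefficient of variation of 0.303. Log2 levels used a prior count of 2. Gene counts of 18281719 to 34578837 per sample leave counting error small beside the replicate spread, except for Micall2 and Micalcl. Libraries of a group all differed beyond sampling noise. Single values were compared by exact permutation over 126 arrangements, of which the smallest p is 0.00794. Each sample is a pool of mice, so p-values measure the spread between these pools, and same-numbered samples were not treated as pairs. Promoter windows came from a RefSeq table of build GRCm38.p6, so their positions are not on mm9. The members, lists and tests were chosen with earlier results of these data known. Genes were named as members, as neighbors by rank or correlation (mean of at least 10 CPM) or as called genes of a list, and others only where stated or where a result turned on them. Alternatives were other tests (likelihood ratio and exact tests, DESeq2 1.42.0, voom of limma 3.58.1), scalings, filters, terms, sample sets and each sample left out. Those without the library with the most reads outside exons in each group, and with both Mical3 identifiers added, were chosen after seeing the data. Some items of the lists and promoter windows are not reported here.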

Additional observations from a re-analysis of the deposited data

Results flagged for a closer look

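Among 48 groups of values examined, 11 held a sample far from the rest of its group by Dixon's criterion. Independent groups would give about 2.4 (1 in 20) by chance. These groups share libraries and hold correlated genes, so the 11 cannot be set against the 2.4. In shNT replicate 1, Lima1 was at 30.33 CPM (the other shNT samples reached 10.7), Zfp185 at 11.38 CPM (others up to 2.524) and Fbxo46 at 27.63 CPM (others up to 12.38), so that the 3 genes lay toward the shRNA samples in the same library. In shRNA replicate 4, Micall2 was at 5.232 CPM against at most 1.386 in the other shRNA samples.

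The same sample, shRNA replicate 4, had summed astrocyte markers of 5836 CPM (others up to 1752), endothelial markers of 848.7 CPM (others up to 141.3), mural markers of 319.1 CPM (others up to 67.66) and ependymal and choroid markers of 91.64 CPM (others up to 30.96). In shNT replicate 2, 18.57% of reads fell outside exons (others up to 11.32%), oligodendrocyte markers summed to 2468 CPM (others up to 1248) and nuclear-retained noncoding RNAs to 1.505e+04 CPM (others up to 3028). The part of these in the members' values was not tested.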

How the results depend on the processing

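The 5 risers had log2 fold changes above 2 under all alternatives run, reaching 4.27 for Zfp185 and 3.83 for 2900026A02Rik in limma voom, and with 1 sample left out they ran from 2.10 (Mical1) to 4.05 (Zfp185, whose lowest was 2.56). Their calls and those of all genes (262 up, 2 down) and of the 7 lists (6 up, 0 down) moved with the setting. The likelihood ratio test called 1688 up and 542 down (lists 22 and 4), the exact test of edgeR 1659 and 534 (22 and 4), DESeq2 1519 and 844 (23 and 8) and voom 2301 and 618 (30 and 3). With library size only, upper quartile scaling, filterByExpr, the YTa31 set alone or a covariate for the reads outside exons, the quasi-likelihood test called 0 genes up and 0 down in the whole table, in the lists and among the risers, with 1493 to 5360 genes at an unadjusted p under 0.05. DESeq2 size factors called 199 up and 1 down (4 of 5 risers), no filter 501 and 14 (lists 13 up), at least 1 CPM in 4 samples 352 and 8, the set of names as a term 376 and 1 (lists 11 up), and leaving out shNT replicate 2 and shRNA replicate 4 (chosen after seeing the data) 678 and 2 (lists 13 up). With 1 sample left out the calls ran from 0 to 1007 up and 0 to 410 down (lists 0 to 18 and 0 to 3, risers 0 to 5), the most without shNT replicate 1, and 0 when any of shNT replicates 3 to 5, shRNA replicate 1 or shRNA replicate 3 was omitted. The causes were not tested.

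With the replicate block (replicates 1 to 4) 34 genes were called up and 0 down, among them all 5 risers. The correlation of same-numbered deviations was -0.27, -0.64, 0.49 and -0.18. The labels do not say whether the numbers pair the samples, and these few values cannot settle it.

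The 3′ identifier of Mical3 passed with a log2 fold change of 1.67 in the likelihood ratio and exact tests, 1.63 in DESeq2, 2.14 in voom, 1.64 without a filter, 1.68 with 1 CPM in 4 samples, 1.55 with the set term, 2.09 without the 2 libraries and 1.58 with both identifiers added. The 5′ identifier passed with 1.39, 1.39, 1.36, 1.82, 1.36 (no filter), 1.26 (set term) and 1.56 (without the 2 libraries). Left-out samples gave 1.29 to 1.90 and 1.15 to 1.71. In voom Mical2 (0.70) and Micall1 (0.83) passed, and relative to the exon length trend they were at -0.016 and 0.17. With left-out samples they ran from 0.35 to 0.68 and 0.36 to 0.66. Micall2 reversed to -0.38 in YTa31, to -0.15 with the covariate and to -0.16 without shRNA replicate 4, of a range of -0.16 to 0.95. The change of Mical2 against Micall1 ran from -0.19 to 0.16 with 1 sample left out, reversing to -0.03 without shRNA replicate 1 and -0.10 without shRNA replicate 2. Mical2 against Micall2 ran from -0.14 to 0.84 (-0.13 without shNT replicate 2) and Micall1 against Micall2 from -0.11 to 0.68 (-0.03 without shRNA replicate 3). At 15 to 116 reads, depth limits Micall2.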
